A study of Homo sapiens with 6 samples.

Results

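This account follows 10 genes that encode receptor tyrosine kinases (EGFR, ERBB2, ERBB3, EPHA2, EPHB4, MET, AXL, IGF1R, FGFR1 and PDGFRB) in breast cancer cells cultured with or without the agent CTI-2. The members are given by gene symbol, by a rule that uses no measured value although earlier results of these data were known, and all 10 were found among the 16362 genes of the deposited count table. The cells are labelled MDA-MB-231, an established human line from a triple-negative breast cancer, commonly described as mesenchymal. The control group (3 libraries) had no agent, and the other group (3 libraries) had CTI-2 for 24 h. Both groups share the line and carry no other stated treatment. CTI-2 carries only a code name in the labels, which state neither a dose nor a vehicle. Total RNA was turned into amplified cDNA with an Oxford Nanopore kit and sequenced as long molecules, so a count is a long read assigned to a gene. The study's title places the work in metastasis, the epithelial-mesenchymal transition and MAPK signalling, and the comparison here asks whether the transcripts of receptors that feed that cascade differ after CTI-2.

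Receptor tyrosine kinases are single-pass membrane proteins that bind a ligand outside the cell, pair up, and phosphorylate tyrosines on each other's inner parts. Adaptors such as GRB2 and SHC1 dock on those phosphotyrosines and pass the signal to RAS and the MAPK cascade, to PI3K or to STAT3, and phosphatases and ubiquitin ligases end it. In triple-negative breast cancer lines EGFR, EPHA2, MET and AXL are widely studied for their part in growth and invasion, whereas ERBB2 and ERBB3 are better known from luminal and HER2-amplified tumours. The files measure transcripts only. They do not measure receptor protein or its phosphorylation.

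Total counts ran from 2208261 to 3929532 per library, over 13908 to 14716 genes with a count, and 3 counts in a library were worth 0.763 to 1.36 CPM (the count scaled to a library total of 1000000). Leaving out the deepest library, control 2, moved the share of all tested genes called from 8.03% to 16.1%, whereas leaving out any other library gave 3.82 to 5.4%. Receptor calls that change without it are given both ways. Separate cultures are not mentioned in any label, so p-values measure only the spread between these libraries, which may be technical. All 8 mesenchymal markers of the list used to check the line were detected, led by PLAUR and SPARC. Their summed level was 727 to 872 CPM in control and 860 to 930 CPM in CTI-2 libraries. PLAUR itself rose (log2 fold change 0.50, edgeR adjusted p = 0.00645), and the part of such a shift in the receptor values was not tested. Vimentin (VIM), a defining mesenchymal marker, was low at 18.7 ± 0.320 CPM in control and 15.7 ± 1.16 CPM in CTI-2 libraries (SD, n = 3). VIM was named after its values were seen, as were XBP1, EPCAM, ESR1, PGR and PDGFRA below. Luminal markers summed to 325 to 342 CPM in control and 344 to 365 CPM in CTI-2 libraries, led by the keratins KRT18 and KRT8, which overlap each other on opposite strands. The log2 fold changes of KRT18 and KRT8 were 0.24 and 0.050 (edgeR adjusted p = 0.149 and 0.843). XBP1 and EPCAM, of the same luminal list, went the other way, with every CTI-2 library below every control. Their log2 fold changes were -0.65 and -0.38, with edgeR adjusted p of 0.0523 and 0.385, so neither was called. The luminal hormone receptors were nearly absent: ESR1 had 3 reads in all 6 libraries, and PGR had no row in the table. Fibroblast and pericyte markers summed to 60.3 to 96.7 CPM in control and 65.2 to 70.1 CPM in CTI-2 libraries, led by COL1A1 and THY1. PDGFRA had no row in the table. Endothelial markers, led by PECAM1 and CDH5, summed to at most 5.09 and 6.74 CPM, and VWF, KDR, TEK and CLDN5 had no row. Immune markers, led by CD14 and LYZ, stayed at or under 1.01 CPM in every library, and PTPRC, CD3E and MS4A1 had no row.

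None of the 8 receptors with enough reads to test changed at an adjusted p under 0.05 (edgeR quasi-likelihood test, Benjamini-Hochberg over 9848 genes). In the same fit 8.03% of all tested genes were called, 3.39% higher and 4.64% lower with CTI-2. At an unadjusted p under 0.05 there were 4 receptors, EPHA2 and AXL with higher and IGF1R and PDGFRB with lower means in CTI-2 libraries, against a background of 23.9% of all tested genes. By DESeq2 and by limma-voom 0 receptors were called as well, where these tools called 6.39% and 7.27% of the genes they gave an adjusted p. DESeq2 gave AXL no adjusted p, so it could not call that receptor. The libraries of the 2 groups did not overlap for EPHA2 and AXL, both higher with CTI-2, and for 28.8% of all tested genes (13.2% higher, 15.6% lower). The median log2 fold change of the 8 receptors was 0.041, with 5 above and 3 below 0, against -0.011 over all tested genes. ERBB3 and FGFR1 had too few reads for the low-count filter and are described by their counts.

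**Figure D1:**
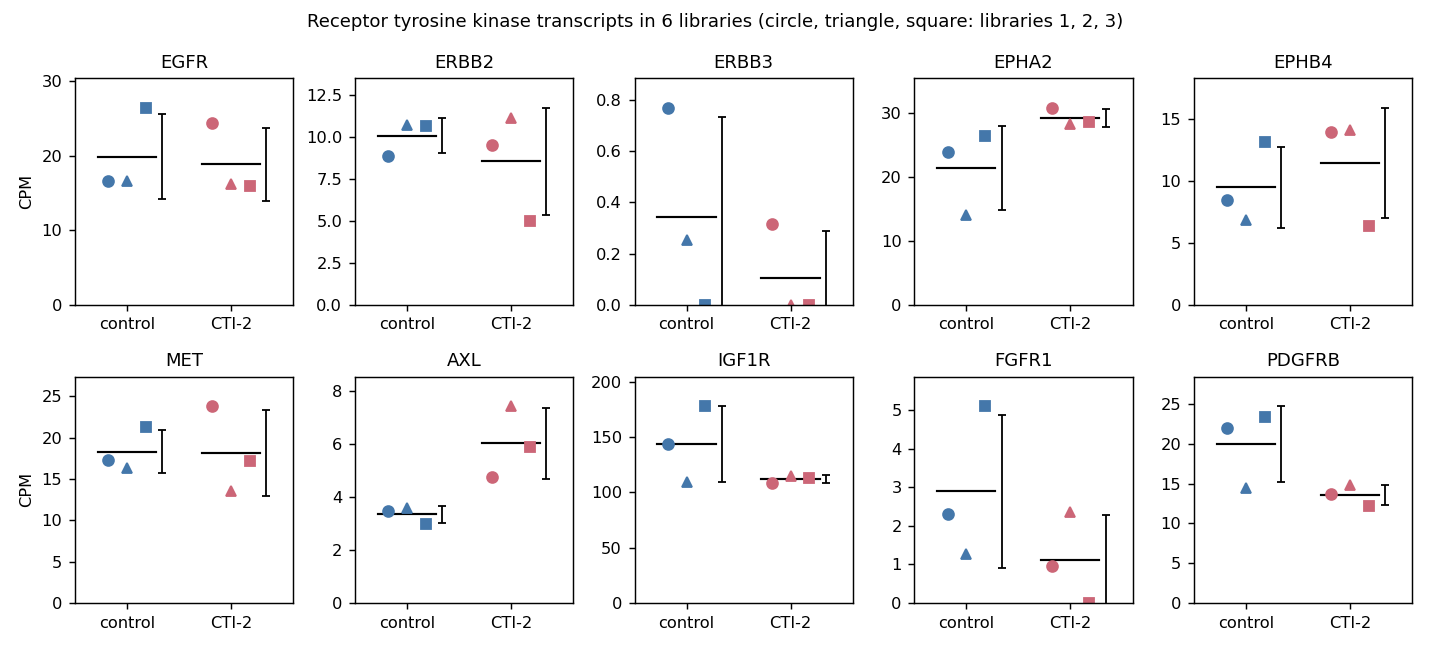
CPM (y axis, from 0, with its own scale in each panel) of each of the 10 receptor genes in the 3 control and 3 CTI-2 libraries. Points are libraries, horizontal lines are group means and vertical bars are the mean ± SD, cut at 0. In the panels of EPHA2 and AXL every CTI-2 library lies above every control library, and in the other tested receptors the groups overlap.

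Promoters are shown for 4 genes that feature in the results: EPHA2, the receptor with the smallest adjusted p, EGFR and its called ligand gene HBEGF, and IGF1R, the most abundant receptor transcript. The part of these sequences in the read counts was not tested. Each run ends just before the annotated gene start and is written 5′ to 3′ on the gene's strand, from RefSeq's GRCh38.p14 table, trimmed so that no base lies inside the GENCODE 29 gene. Capitals mark the GC box GGGCGG on either strand, a binding element of SP1-type factors.
EPHA2, chr1:16156088-16156319, minus strand: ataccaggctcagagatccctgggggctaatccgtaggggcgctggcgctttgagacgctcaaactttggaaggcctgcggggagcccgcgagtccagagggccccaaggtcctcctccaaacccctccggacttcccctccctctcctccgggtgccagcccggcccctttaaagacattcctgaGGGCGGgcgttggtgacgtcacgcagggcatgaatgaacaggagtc
EGFR, chr7:55018767-55019016, plus strand: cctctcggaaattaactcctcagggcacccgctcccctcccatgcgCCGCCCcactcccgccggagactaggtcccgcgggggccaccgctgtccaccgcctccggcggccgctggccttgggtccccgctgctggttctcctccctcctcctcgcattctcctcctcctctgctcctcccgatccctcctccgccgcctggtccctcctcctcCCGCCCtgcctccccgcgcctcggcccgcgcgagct
IGF1R, chr15:98648289-98648538, plus strand: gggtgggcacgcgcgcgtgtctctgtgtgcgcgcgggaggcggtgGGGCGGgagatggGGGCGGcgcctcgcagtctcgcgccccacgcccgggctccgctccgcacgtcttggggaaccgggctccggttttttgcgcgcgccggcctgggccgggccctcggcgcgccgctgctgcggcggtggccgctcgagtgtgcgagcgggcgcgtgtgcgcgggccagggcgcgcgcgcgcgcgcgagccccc
HBEGF, chr5:140346632-140346853, minus strand: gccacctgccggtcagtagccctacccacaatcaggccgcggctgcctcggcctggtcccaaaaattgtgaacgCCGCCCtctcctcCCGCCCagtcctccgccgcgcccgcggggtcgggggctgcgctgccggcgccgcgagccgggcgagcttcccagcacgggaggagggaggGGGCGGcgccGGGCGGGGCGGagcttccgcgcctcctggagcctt

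The RefSeq table matched 8 of the 10 receptors, and motifs were searched on both strands in the 250 bases before each RefSeq start. A GC box was present in 7 of the 8 promoters, all but that of ERBB2, and in 42.6% of all 35116 promoters. GC content had a median of 67.0% over the 8 receptor promoters and 58.0% over all. The IGF1R promoter, at 81.2% GC, was above 97.7% of all promoters. No receptor promoter held the TATA box letters TATAAA, which 10.7% of all promoters held. The AP-1 element TGANTCA and the ETS element CCGGAAG, bound by factor families downstream of MAPK signalling, were each found in 1 receptor promoter, that of ERBB2. Among all promoters 6.57% held the first and 8.52% the second. These matches describe letters in a window and are not binding sites.

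EPHA2 (ENSG00000142627; GRCh38 chr1:16124337-16156087, minus strand) is a receptor for membrane-bound ephrin-A ligands that also signals without ligand in invasive tumour cells. It had 23.9, 14.0 and 26.4 CPM in controls 1 to 3 and 30.8, 28.3 and 28.5 CPM in CTI-2 libraries 1 to 3, from 55 to 97 reads per library. The 3 CTI-2 libraries lay close together and above all controls, while control 2 lay well below the other controls. Group means were 21.4 ± 6.55 and 29.2 ± 1.36 CPM (SD, n = 3). The log2 fold change was 0.55 (SE 0.19, 95% interval 0.17 to 0.92), and the adjusted p was 0.0605 in edgeR, just outside the threshold. Over 18 alternatives the adjusted p ranged from 0.0322 to 0.217, and 3 of them called EPHA2 higher. Without control 2 the log2 fold change was 0.32 with an adjusted p of 0.217, and without control 3 it was 0.69 with an adjusted p of 0.0322 (edgeR).

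EPHB4 (ENSG00000196411; chr7:100802565-100827521, minus strand), the receptor for ephrin-B2, had 8.47, 6.87 and 13.2 CPM in controls and 14.0, 14.2 and 6.34 CPM in CTI-2 libraries. Each group held 1 library at the level of the other group, so the ranges overlapped. Its log2 fold change was 0.41 with a 95% interval from -0.14 to 0.97 and an edgeR adjusted p of 0.373. As a fold, that interval runs from 0.905 to 1.96. Leaving out 1 library moved the log2 fold change from 0.24 (without control 2) to 0.66 (without control 3 or CTI-2 library 3), and no alternative called EPHB4. EPHB4 overlaps SLC12A9 on the opposite strand over 702 bases, and no source used here states if reads were assigned by strand, so its 180 reads are uncertain.

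AXL (ENSG00000167601; chr19:41219203-41261766, plus strand), a receptor for the vitamin K-dependent ligand GAS6 and a marker of mesenchymal and drug-tolerant tumour cells, was the receptor with the highest log2 fold change. It had 3.47, 3.56 and 2.98 CPM in controls and 4.76, 7.41 and 5.89 CPM in CTI-2 libraries, from only 7 to 22 reads each. All 3 CTI-2 libraries lay above the controls, which were tightly grouped. Means were 3.34 ± 0.313 and 6.02 ± 1.33 CPM (SD, n = 3). The log2 fold change of 0.86 carried an SE of 0.36 and a 95% interval of 0.14 to 1.59, and the edgeR adjusted p was 0.126. AXL was called in none of the 15 alternatives that gave it an adjusted p, where this ran from 0.107 to 0.428. Its level was above that of only 7.51% of tested genes, and its SE compares with a median SE of 0.19 over all tested genes.

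IGF1R (ENSG00000140443; chr15:98648539-98964530, plus strand), the receptor for insulin-like growth factors, was the most abundant of the 10 transcripts. Its levels were 144, 109 and 178 CPM in controls and 108, 115 and 113 CPM in CTI-2 libraries, from 250 to 430 reads each. The CTI-2 libraries agreed closely, and control 2 fell inside their range while controls 1 and 3 lay above it. Means were 143.7 ± 34.2 and 112 ± 3.22 CPM (SD, n = 3). The log2 fold change was -0.29 (SE 0.12, 95% interval -0.54 to -0.042), with an edgeR adjusted p of 0.135. Without control 2 the log2 fold change was -0.42 with an adjusted p of 0.0111, a setting in which 16.1% of all genes were called. Without control 3 it was -0.14 with an adjusted p of 0.531. With each library's trend against transcript length removed it was -0.16 (SE 0.10), with an edgeR adjusted p of 0.36.

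PDGFRB (ENSG00000113721), a receptor for platelet-derived growth factors that is best known from fibroblasts and pericytes, had 22.0, 14.5 and 23.4 CPM in controls and 13.6, 14.8 and 12.2 CPM in CTI-2 libraries. Controls 1 and 3 lay above all CTI-2 libraries, and control 2 lay among them. Means were 19.96 ± 4.78 and 13.6 ± 1.30 CPM (SD, n = 3). The log2 fold change was -0.46 (SE 0.21, 95% interval -0.88 to -0.037), with an edgeR adjusted p of 0.166. Without control 2 it was -0.63 with an adjusted p of 0.0428. Of the fibroblast and pericyte markers, COL1A1 also had its lowest control value in control 2, at 52.2 CPM against 87.4 and 82.1 CPM in controls 1 and 3. Its log2 fold change was -0.24, while that of THY1, the other tested marker of the list, was 0.55 (4.20 ± 0.776 CPM in control and 5.71 ± 2.70 CPM in CTI-2 libraries, SD, n = 3), and neither was called. The part of such cells in the PDGFRB values was not tested. The defining markers COL1A2, COL3A1, DCN and RGS5, named after their values were seen, had at most 3 reads in any library, so the list as a whole rested on COL1A1.

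EGFR (ENSG00000146648; chr7:55019021-55211628, plus strand), the founding member of the ErbB family, had 16.6, 16.5 and 26.4 CPM in controls and 24.4, 16.2 and 15.8 CPM in CTI-2 libraries. Each group held 1 high library and a pair of lower ones at the same level. Means were 19.8 ± 5.68 and 18.8 ± 4.85 CPM (SD, n = 3). The log2 fold change was 0.019 with a 95% interval from -0.40 to 0.44 (edgeR adjusted p = 0.969), and its sign turned in 8 of 18 alternatives. As a fold, the interval ran from 0.755 to 1.36. Without control 2 the log2 fold change was -0.058 (edgeR adjusted p = 0.905).

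ERBB2 (ENSG00000141736), the ErbB receptor without a known ligand of its own, had 8.86, 10.7 and 10.6 CPM in controls and 9.51, 11.1 and 4.98 CPM in CTI-2 libraries. The groups coincided apart from CTI-2 library 3, whose value rested on 11 reads. The log2 fold change was -0.16 (95% interval -0.70 to 0.38, edgeR adjusted p = 0.768), and it was 0.067 without CTI-2 library 3. ERBB2 overlaps MIEN1 and PGAP3 on the opposite strand. MIEN1 had 984 reads against 164 of ERBB2 over the 6 libraries, which makes the counts of ERBB2 uncertain. ERBB3 (ENSG00000065361; chr12:56076799-56103505, plus strand), the kinase-poor neuregulin receptor that signals by pairing with ERBB2, was nearly undetected. It had 2, 1 and 0 reads in controls and 1, 0 and 0 in CTI-2 libraries. The ratio of its pooled CTI-2 to control reads, scaled to totals, was 0.355 with a 95% counting interval of 0.00677 to 4.42, which covers counting error only.

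MET (ENSG00000105976; chr7:116672390-116798386, plus strand), the receptor for hepatocyte growth factor, had 17.3, 16.3 and 21.3 CPM in controls and 23.8, 13.5 and 17.2 CPM in CTI-2 libraries. The CTI-2 libraries held both the highest and the lowest of the 6 values. Means were 18.3 ± 2.63 and 18.2 ± 5.22 CPM (SD, n = 3), the log2 fold change was 0.062 (95% interval -0.36 to 0.48) and the edgeR adjusted p was 0.895. FGFR1 (ENSG00000077782), a fibroblast growth factor receptor, had 6, 5 and 12 reads in controls and 3, 7 and 0 in CTI-2 libraries. The ranges overlapped. The pooled ratio of 10 to 23 reads, scaled to totals, was 0.463 with a 95% counting interval of 0.197 to 1.01. LETM2 overlaps FGFR1 on the opposite strand and had 16 reads in all.

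**Figure D2:**
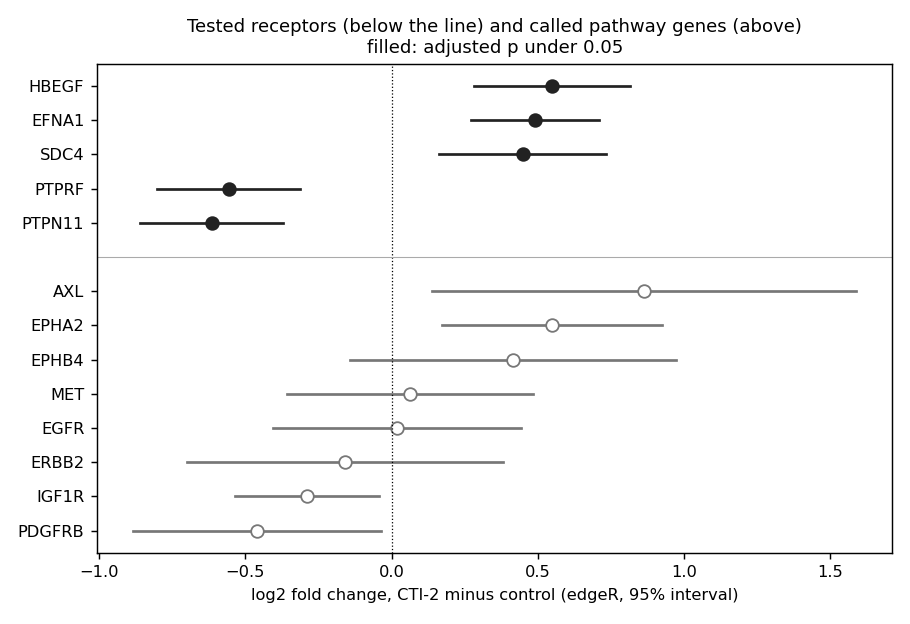
Log2 fold change, CTI-2 minus control (x axis), with 95% intervals from the edgeR fit for the 8 tested receptors (below the line) and the 5 called genes of the ligand, adaptor, phosphatase and co-receptor lists (above it). Filled points have an adjusted p under 0.05; all receptors are open, from -0.46 for PDGFRB to 0.86 for AXL.

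EPHA2, IGF1R and PDGFRB all had their lowest control CPM in control 2, and so did EGFR, EPHB4, MET and FGFR1. ERBB2, ERBB3 and AXL did not. The low level in control 2 was thus not particular to the receptors of small p. Without control 2, IGF1R and PDGFRB were called lower and the log2 fold change of EPHA2 went from 0.55 to 0.32. The calls of EPHA2 came with no low-count filter (log2 fold change 0.56, adjusted p 0.0396, 5.39% of all genes called), with the replicate number as a block (0.55, 0.0352, 9.57% called), and without control 3 (5.4% called), all in edgeR. No alternative turned the sign of EPHA2, AXL, IGF1R, PDGFRB or EPHB4.

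**Figure D3:**
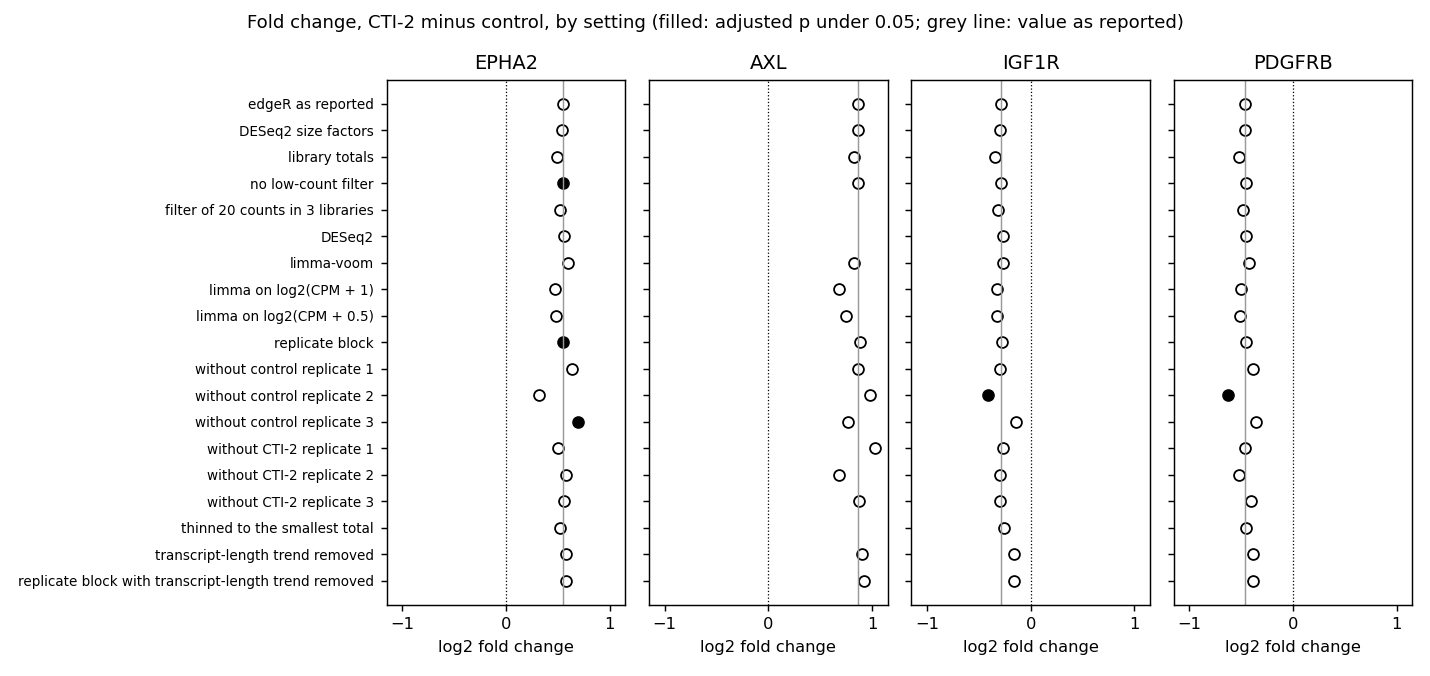
Log2 fold change, CTI-2 minus control (x axis), of EPHA2, AXL, IGF1R and PDGFRB under each analysis setting (rows), with the reported value as a grey line and filled points where the adjusted p was under 0.05. All points of EPHA2 and AXL lie to the right of 0 and all of IGF1R and PDGFRB to the left; AXL has no point where it was not tested or given no adjusted p.

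Levels were compared between receptors per kilobase of annotated transcript. In controls IGF1R was highest at 11.7 CPM per kilobase, then EPHA2 at 5.40, PDGFRB at 3.49, MET at 2.76, ERBB2 at 2.21, EPHB4 at 2.20, EGFR at 2.02, AXL at 0.704, FGFR1 at 0.491 and ERBB3 at 0.0577. Neighbours whose library ranges did not overlap were IGF1R and EPHA2, MET and ERBB2, EGFR and AXL, and FGFR1 and ERBB3. All other neighbours overlapped. In CTI-2 libraries IGF1R stood at 9.16 and EPHA2 at 7.37 CPM per kilobase, still with ranges apart, and MET followed at 2.74 with a range apart from that of EPHA2. EPHB4 at 2.65, PDGFRB at 2.37, EGFR at 1.92, ERBB2 at 1.88 and AXL at 1.27 then formed a run of overlapping neighbours. FGFR1 at 0.187 lay apart from AXL and overlapped ERBB3 at 0.0179. Long reads of full cDNA may not scale with length, and by plain CPM 6 of 10 receptors kept their place in controls and 7 of 10 in CTI-2 libraries. Among all tested genes IGF1R was above 86.0% in mean CPM, EPHA2 above 53.2% and ERBB2 above 25.8%.

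The 10 receptors together had 247, 193 and 307 CPM in controls 1 to 3 and 230.5, 222 and 204 CPM in CTI-2 libraries, with means of 249 ± 57.0 and 219 ± 13.5 CPM (SD, n = 3). The groups overlapped. Within that sum the IGF1R share was 57.5 ± 0.825% in control and 51.3 ± 4.20% in CTI-2 libraries, and the EPHA2 share was 8.49 ± 1.21% and 13.3 ± 0.621%. PDGFRB took 7.999 ± 0.764% and 6.19 ± 0.415%, and AXL took 1.40 ± 0.436% and 2.76 ± 0.644% (SD, n = 3 throughout). There were 16.6, 12.8 and 14.8 EPHA2 reads per 100 IGF1R reads in controls and 28.4, 24.7 and 25.2 in CTI-2 libraries. This ratio needs no scaling between libraries, and control 2 does not stand apart in it. The pair was chosen after the values were seen, so the ratio is a description with no test.

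**Figure D4:**
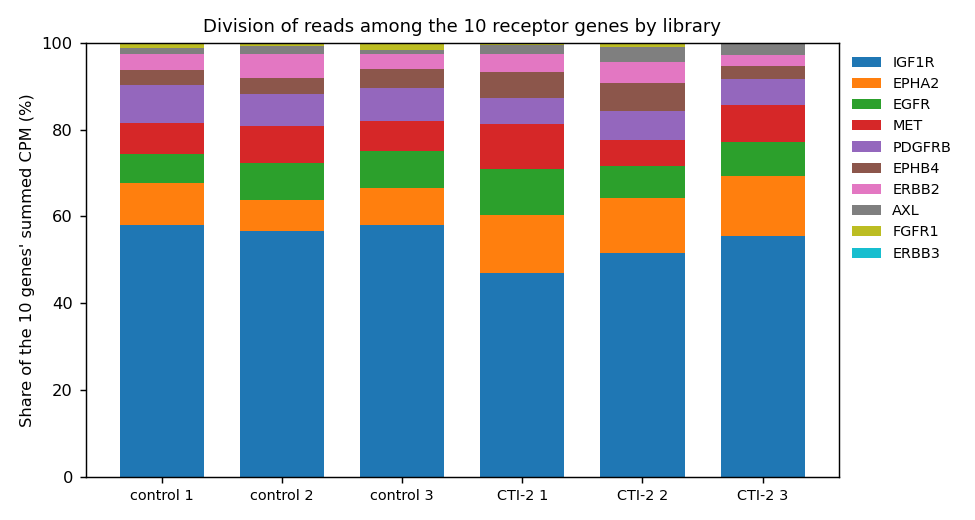
Share of the 10 receptors' summed CPM (y axis, percent) taken by each receptor gene in the 3 control and 3 CTI-2 libraries (stacked bars, from 0 to 100). The IGF1R block takes 57.5% on average in control and 51.3% in CTI-2 libraries, and the EPHA2 block above it 8.49% and 13.3%.

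Annotated transcripts of the receptors are long, from 3964 bases for EPHA2 to 12235 for IGF1R. Over the 8 tested receptors the log2 fold change ran against transcript length with a Spearman rho of -0.55, and over 9218 tested genes with a rho of -0.18. These points share their libraries, so no p is given. With the length trend of each library removed, the log2 fold changes were 0.58 for EPHA2, 0.91 for AXL and -0.39 for PDGFRB, with edgeR adjusted p of 0.057, 0.107 and 0.227. For IGF1R, the longest, the log2 fold change went from -0.29 to -0.16 (edgeR adjusted p = 0.36). The order of the 8 fold changes stayed the same, so the rho over the receptors was unchanged at -0.55. The part of length in the fold changes was not tested beyond this.

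Among the ligands, 2 of 7 tested genes rose and 0 fell, where 3.39% of all tested genes rose and 4.64% fell. EFNA1 encodes ephrin-A1, a membrane-anchored ligand of EPHA2. It had 243, 262 and 254 CPM in controls and 331, 345 and 356 CPM in CTI-2 libraries, with no overlap and little spread in either group. Its level was 1.40-fold higher with CTI-2 (253 ± 9.57 and 344 ± 12.3 CPM, SD, n = 3). On the log2 scale it rose by 0.49 (SE 0.11, edgeR adjusted p = 0.00386). HBEGF encodes heparin-binding EGF-like growth factor, a ligand of EGFR. It had 43.5, 52.9 and 51.5 CPM in controls and 67.2, 72.5 and 71.1 CPM in CTI-2 libraries, again with a gap between the groups. It was 1.46-fold higher (49.3 ± 5.07 and 70.3 ± 2.72 CPM, SD, n = 3). The rise was 0.55 on the log2 scale (SE 0.13, edgeR adjusted p = 0.00745). EFNA1 was called in all 18 alternatives and HBEGF in 17, missing only without control 1 (adjusted p = 0.0622).

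The 3 uncalled ligands of highest level were EPGN (epigen, a ligand of EGFR), EFNA4 (ephrin-A4) and GAS6 (the AXL ligand), with log2 fold changes of 0.38, -0.24 and -0.086 and edgeR adjusted p of 0.241, 0.505 and 0.876. AREG, which encodes amphiregulin, another EGFR ligand, was named after its values were seen. It had 7.32, 11.2 and 6.38 CPM in controls and 12.4, 15.2 and 11.8 CPM in CTI-2 libraries, which do not overlap, but its log2 fold change of 0.64 had an adjusted p of 0.108 in edgeR. The median log2 fold change of the 7 tested ligands was 0.38, against -0.011 over all tested genes. Another 13 ligands had at most 11 reads in any library. They included HGF, the MET ligand, with at most 1 read, IGF2 with at most 1, IGF1 with at most 5, and PDGFB, a PDGFRB ligand, with at most 2, named after their values were seen. The other 8 of the 28 listed ligands, EGF and NRG1 (named for having no row) among them, had no row in the table.

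Set against their receptors, EFNA1 had 10.2, 18.7 and 9.65 reads per EPHA2 read in controls and 10.8, 12.2 and 12.5 in CTI-2 libraries. HBEGF had 2.63, 3.20 and 1.95 reads per EGFR read in controls and 2.75, 4.48 and 4.49 in CTI-2 libraries. Both ratios overlapped between the groups. For EFNA1 the high value was that of control 2, in which EPHA2 was low.

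Of the adaptors and proximal effectors, 1 of 14 tested genes (7.14%) was called, a share near the 8.03% of all tested genes, so the count says nothing particular of the list. That gene fell. PTPN11 encodes SHP2, a phosphatase that docks on activated receptors and is needed for full RAS activation. It had 161, 132 and 137 CPM in controls and 76.4, 105 and 89.7 CPM in CTI-2 libraries, with every CTI-2 library below every control. It was 1.53-fold lower with CTI-2 (143.6 ± 15.3 and 90.4 ± 14.4 CPM, SD, n = 3). Its log2 fold change was -0.62 (SE 0.12, edgeR adjusted p = 0.00121), and all 18 alternatives called it. PTPN11 overlaps RPL6 on the opposite strand over 488 bases. RPL6 had 67895 reads against 2012 of PTPN11, and its own log2 fold change was 0.055, so the counts of PTPN11 are uncertain if reads were not assigned by strand. The 3 uncalled genes of highest level were the RAS exchange factor SOS1 (log2 fold change -0.027), the adaptor NCK1 (0.15) and the transcription factor STAT3 (0.41). Their edgeR adjusted p were 0.931, 0.538 and 0.112. NCK1 overlaps IL20RB on the same strand over 3594 bases. IL20RB had 1630 reads against 757 of NCK1 and was itself called lower (log2 fold change -0.37, edgeR adjusted p = 0.0407), so the counts of NCK1 are uncertain. The median of the list was -0.014, against -0.011 over all tested genes.

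Of the genes that switch off, shed or traffic the receptors, 1 of 20 tested (5%) was called, again no more than the 8.03% of all tested genes. That gene fell. PTPRF encodes LAR, a receptor-type tyrosine phosphatase for which several receptor kinases are known substrates. It had 121, 92.1 and 132 CPM in controls and 78.3, 74.1 and 71.1 CPM in CTI-2 libraries. The CTI-2 libraries were close together and all below the lowest control, which was again control 2. It was 1.47-fold lower (115 ± 20.6 and 74.5 ± 3.63 CPM, SD, n = 3). PTPRF had a log2 fold change of -0.56 (SE 0.12, edgeR adjusted p = 0.00342), and the call held in all 18 alternatives. The genes of highest level that were not called were CAV1 (caveolin-1) and the sheddases ADAM17, which releases HBEGF and other ErbB ligands, and ADAM10. Their log2 fold changes were 0.25, 0.070 and -0.075, with edgeR adjusted p of 0.230, 0.792 and 0.783. ADAM17 overlaps IAH1 on the opposite strand over 8058 bases (844 reads of IAH1 against 1044). The counts of ADAM17 are uncertain if reads were not assigned by strand. The median of the list was -0.029.

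Of the co-receptors and binding partners, 1 of 13 tested genes (7.69%) was called, also near the 8.03% of all tested genes. That gene rose. SDC4 encodes syndecan-4, a heparan sulfate proteoglycan that presents growth factors to their receptors. It had 37.0, 33.3 and 35.7 CPM in controls and 48.8, 45.8 and 44.8 CPM in CTI-2 libraries, with no overlap. It was 1.37-fold higher (35.4 ± 1.85 and 46.5 ± 2.08 CPM, SD, n = 3). This corresponds to a log2 fold change of 0.45 (SE 0.14, edgeR adjusted p = 0.0410). Its log2 fold change lay between 0.39 and 0.47 in all 18 alternatives, but only 6 of them kept the call. It was lost with DESeq2 (adjusted p = 0.115) and in 5 of the 6 edgeR fits that left out a library (adjusted p up to 0.146), and kept without control 2 (0.0388). The chaperone genes HSP90AB1 and HSP90AA1, which stabilise many kinases, had log2 fold changes of 0.079 and -0.011 and edgeR adjusted p of 0.734 and 0.968. Both have processed copies elsewhere in the genome, so their counts are uncertain. IGF2R, which clears IGF2 and does not signal as a kinase, had 201, 168 and 273 CPM in controls and 159, 150.0 and 70.6 CPM in CTI-2 libraries. Its groups did not overlap, but the wide spread left its log2 fold change of -0.68 with a 95% interval of -1.63 to 0.28 and an edgeR adjusted p of 0.349. The median of the list was -0.072.

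**Figure D5:**
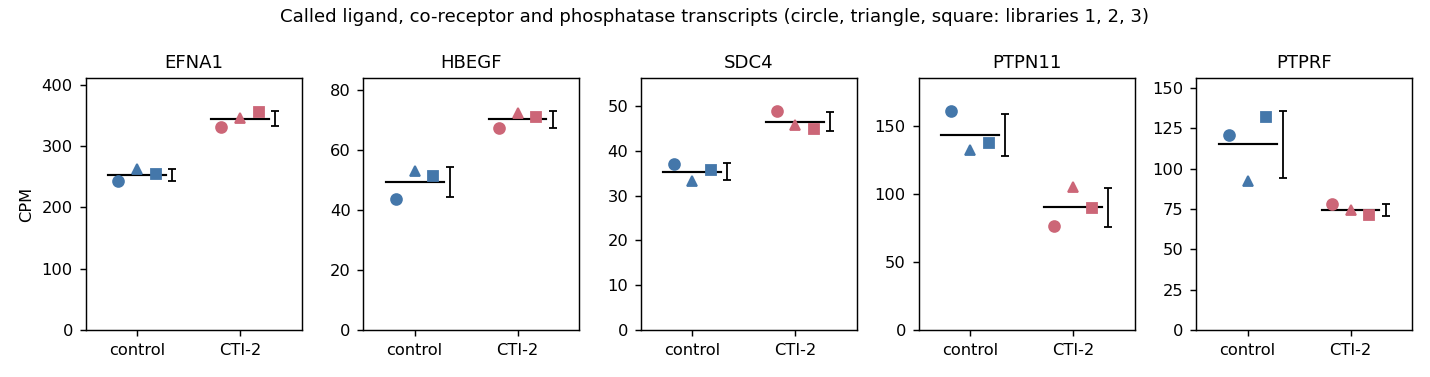
CPM (y axis, from 0, with its own scale in each panel) of the 5 called ligand, co-receptor and phosphatase genes in the 3 control and 3 CTI-2 libraries. Points are libraries, horizontal lines are means and vertical bars are the mean ± SD. EFNA1, HBEGF and SDC4 are higher in all CTI-2 libraries, and PTPN11 and PTPRF are lower.

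Beyond the 10 members, 48 other receptor tyrosine kinase genes were listed. Of these 25 had a row, 11 were tested and 0 were called, where 8.03% of all tested genes were called. At an unadjusted p under 0.05 there were 3 of the 11, near the 23.9% of all tested genes, and the median log2 fold change was -0.13. DESeq2 also called 0. The most abundant were the collagen receptors DDR2 and DDR1 and MST1R, the receptor for macrophage-stimulating protein and a relative of MET. DDR2 had 42.0, 35.9 and 53.6 CPM in controls and 39.0, 26.6 and 25.8 CPM in CTI-2 libraries (log2 fold change -0.44, edgeR adjusted p = 0.0956). MST1R had 40.8, 30.8 and 52.3 CPM in controls and 33.6, 27.3 and 28.5 CPM in CTI-2 libraries (-0.38, 0.138), and DDR1 had a log2 fold change of -0.25 (0.394). In each of these the groups overlapped, for DDR2 and MST1R only because control 2 lay below CTI-2 library 1. Without control 2, MST1R was called lower (log2 fold change -0.53, edgeR adjusted p = 0.0312) and DDR2 was not (-0.53, 0.058), in a fit that called 16.1% of all genes. Without CTI-2 library 1, DDR2 was called lower (-0.67, adjusted p = 0.0217), where edgeR called 4.92% of all genes. TYRO3, the relative of AXL in the same family and named after its values were seen, had 28.6 ± 3.66 CPM in control and 21.0 ± 2.13 CPM in CTI-2 libraries (SD, n = 3). Its groups did not overlap, with CTI-2 lower, and its log2 fold change of -0.38 had an edgeR adjusted p of 0.167. The log2 fold changes of AXL and TYRO3 thus had opposite signs, and neither passed the threshold.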

How the data were processed

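Whole-number read counts per gene and CPM were deposited by the authors for 6 libraries, with gene length (not used as a measurement). The deposited CPM equalled each count scaled to 1000000 per library, within 1e-09. Reads were aligned with minimap2, per the submitters' processing notes. No version, genome build, counter or use of strand is named in the sources used here. The groups follow the labelled agent.

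The main test was the robust quasi-likelihood test of edgeR 4.0.16 (R 4.3.3) after TMM scaling, on the 9848 of 16362 genes that passed filterByExpr, CTI-2 minus control, with Benjamini-Hochberg adjustment over all tested genes and a threshold of 0.05. CPM are given as mean ± SD of 3 libraries. Counting intervals are 95% and exact, cDNA reads carry no molecular identifiers, and so intervals and floors (3 counts) cover counting error only. Chi-square per degree of freedom was 3.92 to 6.76 between control libraries and 1.77 to 2.43 between CTI-2 libraries, so none was counted as a repeat deposit. The controls thus differed more among themselves by this measure. On simulated counts of this comparison (9912 genes in the fit) the test recovered 45.3% of genes changed 1.5-fold, 84.1% at 2-fold and 100% at 4-fold. Of 152 calls 5 were false. The simulation gave every gene the same spread between libraries (coefficient of variation 0.1) in both groups, with no trend particular to a library. The deposited libraries differ from that setting, so these rates may not hold for them, least of all for genes with few reads.

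Coordinates come from GENCODE 29 on GRCh38, 1-based, and only where the deposited gene length equals the annotated span, as it does for 80.6% of the 14408 Ensembl identifiers and 8 of the 10 receptors. The coordinates of FGFR1 are not reported here. Transcript length is that of an annotated GENCODE transcript, available for 93.6% of tested genes.

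The members and gene lists were chosen with earlier results of these data known. The genes named are the 10 receptors, the called genes of each pathway list (up to 6) with the 3 uncalled genes of highest mean CPM, and the 2 highest markers of each cell type list. Others are said to be chosen after their values were seen. Alternatives changed the scaling (library totals, or the size factors of DESeq2), the filter (none, or 20 counts in 3 libraries), and the tool (DESeq2 1.42.0, limma-voom, or limma on log2(CPM + 1) or log2(CPM + 0.5) from limma 3.58.1). Others were a replicate block, leaving out each library, thinning to the smallest total, an adjusted p of 0.01, and offsets that remove a lowess trend (span 0.3) of counts against transcript length.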

Additional observations from a re-analysis of the deposited data

How the results depend on the processing

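Of the fold changes recomputed for the 8 tested receptors and the 5 called pathway genes under the alternatives, 200 kept their direction and side of the threshold, 13 turned sign, 5 passed the threshold and 13 lost it. The cause was not tested in any of these. The sign turned for EGFR with library totals (-0.036), the filter of 20 counts in 3 libraries (-0.0034), limma on log2(CPM + 1) (-0.066) and on log2(CPM + 0.5) (-0.067) and thinning (-0.073), for ERBB2 with thinning (0.015), and for MET with limma on log2(CPM + 1) (-0.037) and log2(CPM + 0.5) (-0.039). Leaving out 1 library at a time gave log2 fold changes of -0.23 to 0.22 for EGFR, -0.37 to 0.067 for ERBB2, -0.21 to 0.26 for MET, 0.32 to 0.69 for EPHA2, 0.24 to 0.66 for EPHB4, 0.68 to 1.03 for AXL, -0.42 to -0.14 for IGF1R and -0.63 to -0.36 for PDGFRB. EPHA2 was called with no low-count filter (0.56) and with the replicate block (0.55), so the number of receptors called went from 0 to 1 in both, and it was 0 to 2 when 1 library was left out.

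Among all genes, 334 were higher and 457 lower. Those higher numbered 107 and those lower 199 at an adjusted p of 0.01. The replicate block with the transcript-length trend removed gave 200 higher, DESeq2 gave 234 lower, and leaving out 1 library gave 113 to 957 higher and 287 to 653 lower, both highest without control 2. Called co-receptors went from 1 to 0 with library totals, no filter and DESeq2, and to 2 with limma-voom and with the replicate block. With 1 library left out there were 0 to 2 co-receptors, 0 to 1 other receptor kinases, 1 to 3 ligands and 1 to 2 negative regulators. The median of all genes moved by less than 0.1 (log2) in every setting, with -0.063 the farthest from 0. By plain CPM 6 of 10 receptors in control and 7 of 10 in CTI-2 libraries kept their place.

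Same-numbered libraries did not deviate together (correlations of -0.049, 0.0069 and -0.12), so the numbers do not pair them, and the replicate block moved the calls among all genes from 791 to 942. Depth limits ERBB3, FGFR1 and AXL most, at no more than 22 reads in any library.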
